A study of Macaca mulatta with 304 samples.

Results

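Control blood of rhesus macaques (Macaca mulatta), drawn 2 days before irradiation of the thorax, was compared between animals that were later followed for longer and animals followed for a shorter time. Of the 304 whole blood RNA samples of the series, 24 were such controls, each from a different animal. The series held 28 animals, 12 in the lower dose group (LD, 9.8 Gy) and 16 in the higher dose group (HD, 10.7 Gy), and blood was drawn repeatedly up to Day 270. The members were all samples labelled as control, and the dose group and the last draw day of an animal were read from its later samples. An LD animal counted as longer followed when its last draw was on Day 270, and an HD animal when its last draw was on Day 90 or after. This gave 5 LD and 3 HD longer followed animals, and 7 LD and 9 HD shorter followed animals. The last draw fell on Day 270 in all LD longer followed animals, on Day 90, 94 and 270 in the HD longer followed animals, on Day 102 to 172 in the LD shorter followed and on Day 40 to 77 in the HD shorter followed animals. The last draw day is not a recorded survival time. Longer followed animals were 3 males and 5 females, and shorter followed animals were 9 males and 7 females. No control had received radiation or the drugs given after it, so LD and HD here name a dose that was still to come. All animals were described as healthy adults of a Chinese sub-strain, aged 3 to 5 years. For 4 HD animals, 2 longer and 2 shorter followed, no control was analysed here.

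Whole blood RNA comes mostly from neutrophils, lymphocytes, monocytes, platelets and young red cells that still hold transcripts. The level of a gene in such a sample therefore depends on how many cells of a type the blood contains and on how much RNA each of them holds, and these cannot be told apart in these data. Eosinophils, the granulocytes of allergic and parasite responses, are a small and variable share of blood cells, and genes of the major histocompatibility complex and of killer immunoglobulin-like receptors differ in sequence and copy number between animals of 1 species.

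Between 6676757 and 14609879 reads per control were counted on genes (median 11697185.5). The total did not differ between longer and shorter followed animals beyond its spread (11623335 ± 2337786 against 10991758 ± 2137099 reads, SD, n = 8 and 16, exact two-sided permutation test within dose groups p = 0.820). Defining transcripts of blood cells were read in every control, among them CSF3R of neutrophils (547 to 5400 CPM, counts scaled to the library total), CD3E of T cells (median 397 CPM), MS4A1 of B cells (86.2 to 528 CPM) and ALAS2 of red cell precursors (920 to 9770 CPM). Transcripts of other tissues were at or near 0, with at most 0.54 CPM for ALB of liver, 0.178 CPM for SFTPC of lung and 0 for INS of pancreas. In 4 controls, all of HD animals (1 longer and 3 shorter followed), the library name carried the number 0, and these had 6676757 to 7153384 reads, against 10341473 to 14609879 in the other 20. What that number stands for is not given in the sources used here. A gene is called below when its adjusted p does not exceed 0.05 and its change is 1.5-fold or more. Between these 4 and the other controls 583 of 14218 tested genes (4.10%) were called, 403 higher (2.83%) and 180 lower (1.27%), and within HD controls 968 of 14213 (6.81%). HBB, a hemoglobin chain, was among them, with -3.71 on the log2 scale. A further pair of controls, LD shorter followed animals 5 and 6, had the lowest scaling factors (0.8822 and 0.7758, median 1.005) and stood apart in principal components.

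No gene passed the test between longer and shorter followed animals before irradiation. Among 14218 genes 0 were called (0%) in edgeR's quasi-likelihood test with dose group as a covariate, and the smallest adjusted p was 0.9999. DESeq2 called 0 as well. At an unadjusted p of at most 0.05 stood 265 genes (1.86%) with edgeR, 159 of them higher in longer followed animals (1.12%, against 0.746% lower), and 332 genes (2.34%) with DESeq2. Evenly spread p would place a share of 0.05 of the genes there, more than with either tool. The 95% interval of the log2 difference extended by a median of 0.36 to either side, and for 80.47% of genes by no more than the log2 of a 1.5-fold change. The interaction of follow-up and dose group was called for 0 genes, with 1.37% of genes at an unadjusted p of at most 0.05. Without the 2 controls of lowest scaling factor, 0 genes were called and 885 of 14311 (6.18%) stood at an unadjusted p of at most 0.05. The genes named for this comparison are those with the smallest unadjusted p, and none of them passed the adjusted threshold, so their values are given as a description.

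**Figure D1:**
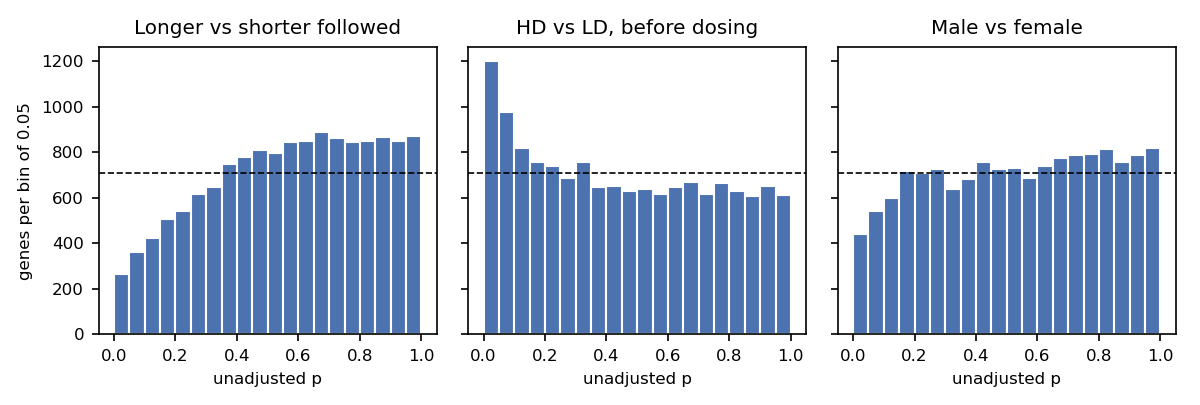
Number of genes (y axis, bins of 0.05) by unadjusted p (x axis) in the 24 controls for 3 comparisons of edgeR, with a dashed line at the number per bin that equal spacing would give. The first bin holds about 265 genes for longer against shorter followed animals and about 1203 for HD against LD animals.

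EPX had the largest log2 difference of all tested genes. It encodes eosinophil peroxidase, the main peroxidase of eosinophil granules (Mmul_10, chr16:38597065-38608574, minus strand). In the 5 LD longer followed animals EPX stood at 99.25, 36.98, 22.77, 0.0894 and 1.583 CPM, and in the 3 HD longer followed animals at 4.847, 22.28 and 0.5956 CPM. In LD shorter followed animals it ranged from 0.529 over a median of 1.621 to 11.21 CPM (n = 7), and in HD shorter followed animals from 0.0889 over 1.63 to 9.118 CPM (n = 9). Thus 4 of the 8 longer followed animals lay above every shorter followed animal, while 3 lay at or below 1.583 CPM and the groups overlapped. The difference was 2.41 ± 0.732 on the log2 scale (SE, edgeR, unadjusted p = 0.00291, adjusted p = 0.9999), and without LD longer followed animal 1 its unadjusted p was 0.0189. In HD animals alone the difference was 1.70 (edgeR, unadjusted p = 0.0678). With the deposited log2 values it was 1.40 (limma, unadjusted p = 0.104). Of the eosinophil and basophil list, 10 of 16 genes were tested, and the log2 difference of the 10 had a median of 0.562, against -0.0157 over all tested genes. With Day 270 against all shorter follow-up in both dose groups, that median was 0.202. Of these 10, 0 were called and 4 stood at an unadjusted p of at most 0.05 with higher values in longer followed animals, as did 1.12% of all tested genes. Besides EPX these were IL5RA, the receptor chain for the eosinophil growth factor interleukin 5 (8.84 against 4.15 CPM), GATA2, a regulator of basophil, mast cell and stem cell genes (63.03 against 40.4 CPM), and CCR3, the eotaxin receptor (18.7 against 12.4 CPM). HDC, CPA3, MS4A2 and FCER1A, which are basophil and mast cell genes, had log2 differences of 0.591, 0.533, 0.46 and 0.126, with unadjusted p of at least 0.188. All 10 differences were above 0, between 0.126 and 2.41. The 10 genes mark related cells and were read in the same animals, so they do not count as separate evidence.

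PIM1, a serine/threonine kinase induced by cytokines, had the second largest log2 difference among the genes with higher values, 2.13 ± 0.654 on the log2 scale (edgeR, unadjusted p = 0.00317, adjusted p = 0.9999). Its levels were 2.319, 19.18, 21.99, 3.576 and 55.34 CPM in LD longer followed animals and 2.048, 21.61 and 1.34 CPM in HD longer followed animals. LD shorter followed animals had 0.871 to 4.781 CPM (median 2.7), and HD shorter followed animals 1.00 to 24.49 CPM (median 2.838). In all, 5 animals, 4 longer followed and 1 shorter followed, had a level of 18 CPM or more, and the other 19 had less than 5 CPM. Of these 5, only LD longer followed animal 2 was male. With sex as a further term the log2 difference of PIM1 was 1.74 (edgeR, unadjusted p = 0.00996). Of the 100-base windows of the PIM1 transcripts, 29.8% also occurred in transcripts of another gene (LOC719232), so the counts of these 2 genes may not be fully apart. TTN, which encodes the muscle protein titin, stood at 629.3 CPM in LD longer followed animal 5, against 15.2 to 142.8 CPM in the other 7 longer followed animals and 21.2 to 90.2 CPM in the shorter followed. Without that animal its unadjusted p was 0.109.

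The remaining genes with higher values in longer followed animals lay closer together. RASA4B, which restrains Ras signaling, had 17.61 to 39.58 CPM in longer followed animals (median 24.9) and 9.559 to 24.66 CPM in shorter followed animals (median 15.9), with a log2 difference of 0.66 ± 0.171 (SE). F5, coagulation factor V, had a median of 46.5 CPM against 29.1 CPM, and SMPD3, a neutral sphingomyelinase, 23.2 against 12.7 CPM. SP6, a transcription factor best known from teeth and skin, had 1.638 to 6.318 CPM against 0 to 3.701 CPM. SLC24A2, CABP4 and ANKRD63 were lowly read, with means of 3.16, 4.70 and 1.63 CPM in longer followed animals against 1.51, 3.22 and 1.07 CPM. For all of these the ranges of the groups overlapped and the adjusted p was 0.9999.

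CACNA1C, the pore subunit of an L-type calcium channel, had the smallest unadjusted p of all genes. Its levels in the LD longer followed animals were 1.759, 1.377, 0.777, 1.967 and 2.058 CPM, below the 2.159 to 4.245 CPM of the LD shorter followed. In the HD longer followed animals they were 0.614, 0.932 and 0.745 CPM, against 0.851 to 3.116 CPM in the HD shorter followed. The groups were thus apart in LD animals and overlapped in HD animals, at 5 to 26 reads per longer followed control. The log2 difference was -1.05 ± 0.232 (SE, unadjusted p = 0.000112, adjusted p = 0.9999 with edgeR). With DESeq2 the adjusted p was 0.1088.

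MAMU-A, a class I antigen presenting molecule of the macaque (chr4:139971826-139975522, minus strand), was the only highly read gene among those with lower values. It stood at 602.7, 480.3, 567.1, 823 and 1088 CPM in LD longer followed animals and at 526.4, 190.7 and 355 CPM in HD longer followed animals. LD shorter followed animals had 539.1 to 1762 CPM (median 948.6), and HD shorter followed animals 495.3 to 1430 CPM (median 625.2). The log2 difference was -0.82 ± 0.239 (unadjusted p = 0.00206), with overlap between the groups. The reads had been aligned to 1 reference genome, and how well the alleles of an animal match it was not tested. DNASE1L3, a secreted nuclease of dendritic cells and macrophages, had 0.0847 to 1.073 CPM in longer followed animals against 0.193 to 2.621 CPM, a log2 difference of -1.46 ± 0.407. BBS12, a chaperonin-like protein of cilia, had a median of 3.99 CPM against 10.6 CPM, and NEGR1, a neural adhesion molecule, 0.493 against 1.2 CPM. CRTAM, a receptor of activated cytotoxic lymphocytes, had 3.135 to 7.331 CPM against 3.971 to 10.88 CPM. VWA1, NAP1L2, GABRA5 and C5H4orf50 had means of 1.01, 1.34, 1.36 and 3.58 CPM in longer followed animals against 1.99, 2.47, 2.33 and 6.73 CPM.

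**Figure D2:**
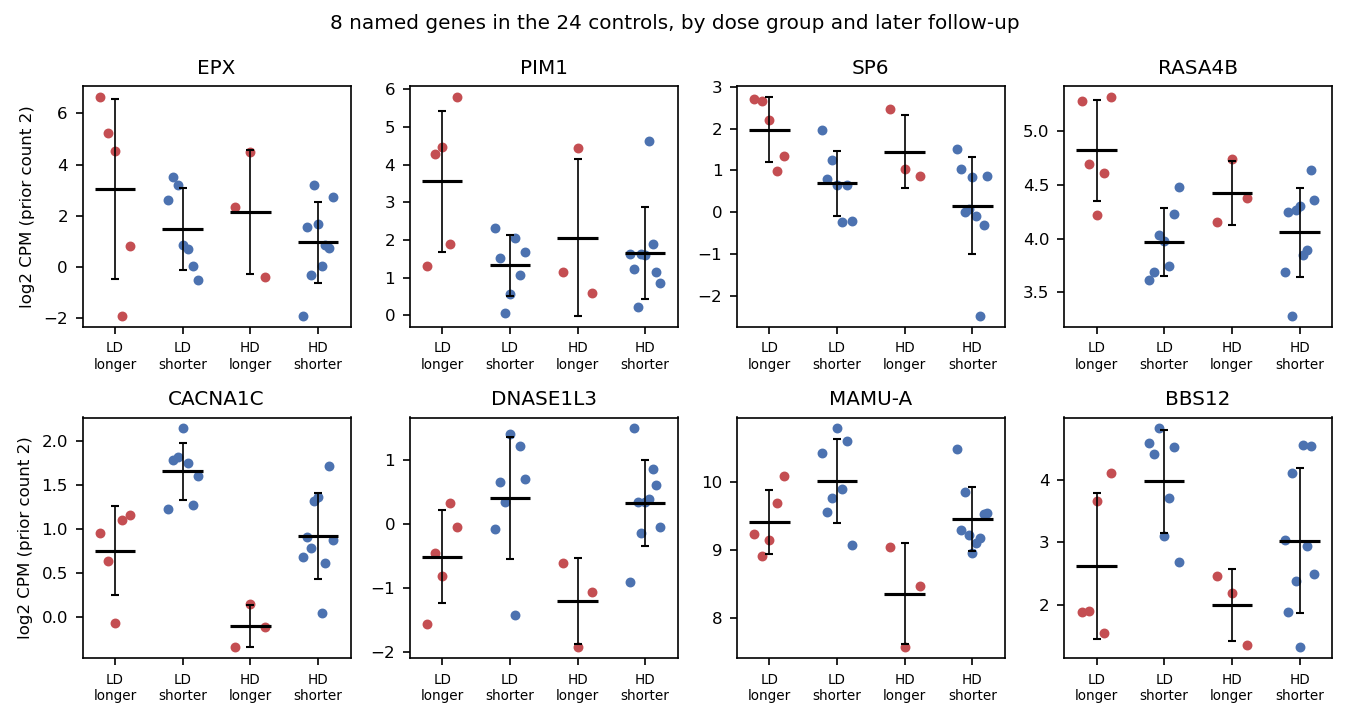
Log2 CPM (prior count 2) of 8 named genes in each of the 24 controls, in 4 groups of 5, 7, 3 and 9 animals, with the mean (bar) and SD (error bar). Red points are longer and blue points shorter followed animals. EPX and PIM1 have a few high animals, and for CACNA1C the LD longer followed animals lie below the LD shorter followed.

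In 24 lists of blood cell and pathway genes, 0 members were called. For 23 of them, leaving out the eosinophil list, the median log2 difference lay between -0.319 and 0.199. Ribosomal protein genes had the lowest median, -0.319, with 37 of 37 tested members below 0 (range -0.469 to -0.13) and 2 of them, RPS2 and RPL22, at an unadjusted p of at most 0.05. That median was -0.526 in LD animals alone and 0.00785 in HD animals alone. In the 4 controls of library number 0, all of HD animals, the ribosomal list had a median of -0.553 against the other controls. The LD median holds no such control, since none of them was of an LD animal. For the HD median and the median over all animals the part of the library number was not tested. The ribosomal genes were read in the same animals, so they do not count as separate evidence. NK and cytotoxic genes had a median of -0.288, T cell genes of -0.18 and B cell genes of 0.199. Of the T cell list CD8B, a chain of the CD8 coreceptor, stood at an unadjusted p of 0.0295 (49.6 against 74.4 CPM), and of the monocyte list CLEC4D, a lectin receptor of myeloid cells, at 0.0312 (0.637 against 2.43 CPM). CIITA, the master regulator of class II genes, stood at 0.0214 (335 against 258 CPM), and OAS1, an interferon-induced antiviral enzyme, at 0.0407 (8.30 against 12.6 CPM). None of the neutrophil, platelet, erythroid, p53 target, immediate early, proliferation or DNA repair genes stood at an unadjusted p of at most 0.05. Their smallest values belonged to MPO (0.233), ITGB3 (0.209), GYPC (0.0550), CDKN1A (0.0946), KLF2 (0.198), CCNB2 (0.124) and CHEK2 (0.227).

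The same animals were then read after irradiation, where 5 draws of Day 3 to 21 and 2 draws of Day 30 and 40 were summed per animal. These draws are of the same animals, so they do not add animals to the comparison. Of 15996 genes at Day 3 to 21, 0 (0%) were called, with 688 (4.30%) at an unadjusted p of at most 0.05, and of 14521 genes at Day 30 and 40, 0 (0%) were called, with 1135 (7.82%) at that p. EPX had a log2 difference of 1.35 ± 0.683 at Day 3 to 21 and 1.76 ± 0.655 at Day 30 and 40. PIM1 had 2.56 ± 0.763 and 2.76 ± 0.868, MAMU-A -0.77 ± 0.243 and -0.88 ± 0.248, and NEGR1 -1.51 ± 0.491 and -1.84 ± 0.711. TTN, by contrast, had -0.20 ± 0.380 and -0.35 ± 0.434, the opposite sign to its control difference. All of the other 19 named genes kept the sign of the control difference in both windows. In the 4 HD animals with no control here, EPX over Day 6, 9 and 21 was 2.726 and 19.75 CPM in the longer followed and 2.784 and 2.355 CPM in the shorter followed animals. PIM1 was 3.085 and 29.12 CPM in the longer followed against 1.512 and 2.237 CPM. BBS12 was 32.18 and 8.537 CPM against 17.15 and 17.25 CPM, and DNASE1L3 was 3.049 and 2.127 CPM against 0.55 and 1.089 CPM. CACNA1C was 2.332 and 2.155 CPM in the longer followed against 1.581 and 1.825 CPM. For EPX and PIM1, 1 of these 2 longer followed animals was well above both shorter followed ones. For CACNA1C, DNASE1L3, VWA1 and CRTAM both longer followed animals were higher than both shorter followed, opposite to the controls. For PIM1 both were higher, and for MAMU-A and GABRA5 both were lower, the same way as in the controls. By the means, 12 of the 20 named genes ran opposite to the controls and 8 the same way. Both longer followed animals were female and both shorter followed were male, so follow-up and sex cannot be told apart in these 4 animals.

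LD and HD animals had been assigned to a dose but had not yet received it. With follow-up as a covariate 0 of 14218 genes (0%) were called, while 1203 (8.46%) stood at an unadjusted p of at most 0.05. POU2F2, a transcription factor of B cells, came closest to the threshold, with a log2 difference of 0.93 ± 0.161 (HD minus LD, edgeR adjusted p = 0.0626), followed by ZG16 with -0.55 ± 0.110, HHAT with -0.88 ± 0.180 and POU2AF1, the coactivator of POU2F2, with 0.77 ± 0.159 (adjusted p = 0.177 each). DESeq2 called 10 genes. All 4 controls of library number 0 were of HD animals, and among the other 20 controls the number at an unadjusted p of at most 0.05 was 705 and the smallest adjusted p 0.933.

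Sex had called genes in edgeR. With 12 males and 12 females, 12 genes (0.0844%) were called, 3 higher (0.0211%) and 9 lower (0.0633%) in males, and 3.09% of genes stood at an unadjusted p of at most 0.05. RPS4Y1, a ribosomal protein gene of the Y chromosome, was higher in males by 8.58 ± 0.286 on the log2 scale, and LOC106992273, also on the Y chromosome, by 5.82 ± 0.176. All 9 genes lower in males lie on the X chromosome. MAP7D2, a microtubule binding protein, had -4.11 ± 0.257. The histone demethylases KDM5C (-0.80 ± 0.131) and KDM6A (-0.72 ± 0.0795) were among them, as were ERCC6L (-0.76 ± 0.148) and LOC114674876 (-0.71 ± 0.116). ZFX, a transcription factor, had -0.69 ± 0.0919, DDX3X, an RNA helicase, -0.67 ± 0.126, PRKX, a kinase, -0.61 ± 0.0916, and EIF1AX, an initiation factor, -0.59 ± 0.121. Of the transcript windows of PRKX, 54.7% also occurred in other genes, with LOC106992273 sharing the most. For LOC106992273 the share was 13.6%, with PRKX sharing the most. The counts of PRKX and LOC106992273 may therefore not be fully apart. C2H3orf18 was the single called gene on an autosome (0.70 ± 0.144, adjusted p = 0.0495 with edgeR). With at least 10 counts in at least 8 controls in place of the filter used, 26 genes were called.

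Genes differed widely in how much they varied between healthy animals. The SD of log2 CPM over the 24 controls had a median of 0.404 and ran from 0.145 at the lowest hundredth of genes to 1.26 at the highest hundredth. Of 11200 genes with a mean of at least 5 CPM, 582 (5.21%) had a highest control at least 10 times the lowest, and 2190 (19.6%) stayed within a factor of 2. The steadiest gene was RER1, a Golgi sorting receptor, which ranged from 122.8 over a median of 137.3 to 158.2 CPM (SD 0.098), and CTNNB1, beta-catenin, from 174.8 to 228.5 CPM (SD 0.0982). KHDC4, EIF4ENIF1, TBL2, UBE2G1, SNX19, EIF4E2, YY1 and MIA3 had SDs between 0.0998 and 0.108.

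Among genes with a mean of at least 5 CPM, leaving out the Y chromosome and symbols beginning LOC, PRSS47, a serine protease, had the largest SD (chr15:107288348-107302035, minus strand). It ranged from 0 over a median of 5.30 to 113.5 CPM, and 2 controls had no read of it. CPAMD8, a protein related to complement C3, was below 1 CPM in 12 controls and above 10 CPM in 4, with 57.2 CPM as the highest. HES4, a transcriptional repressor, ranged from 0.386 to 63.1 CPM. CPED1, a protein with a cadherin-like domain (chr3:147402893-147713869, plus strand), ranged from 1.34 over 11.4 to 107.7 CPM. LAMA5, the alpha 5 chain of laminin (chr10:97453353-97511866, minus strand), ranged from 3.05 over 61.9 to 309.5 CPM. ROR2, a receptor of Wnt ligands, ranged from 0.473 to 59.4 CPM, TAFA5, a secreted neural protein, from 0.321 to 46.6 CPM, and C3, the central complement protein, from 0.233 to 26.7 CPM. GPT2, a mitochondrial alanine aminotransferase, and ANKRD22 reached 48.5 and 46.8 CPM from lows of 1.04 and 0 CPM. SIGLEC12, a sialic acid binding lectin, GBP6, an interferon-inducible guanylate binding protein, NFASC, a neural adhesion molecule, HUNK, a kinase, MYH14, a nonmuscle myosin, and CHSY3, a chondroitin synthase, ranged from below 0.2 CPM to between 14.8 and 54.5 CPM. PGA4, a pepsinogen, and MAMU-KIR, a killer immunoglobulin-like receptor, belong to families of near copies, and 45% and 14.7% of their 100-base windows occurred in other genes, so their counts are uncertain. EPX and HBB also belonged to these 20 genes. HBB, from 3.87 over 93.3 to 346 CPM, was the only one of the 20 called between library number 0 and the others, and none was called between sexes or follow-up classes.

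**Figure D3:**
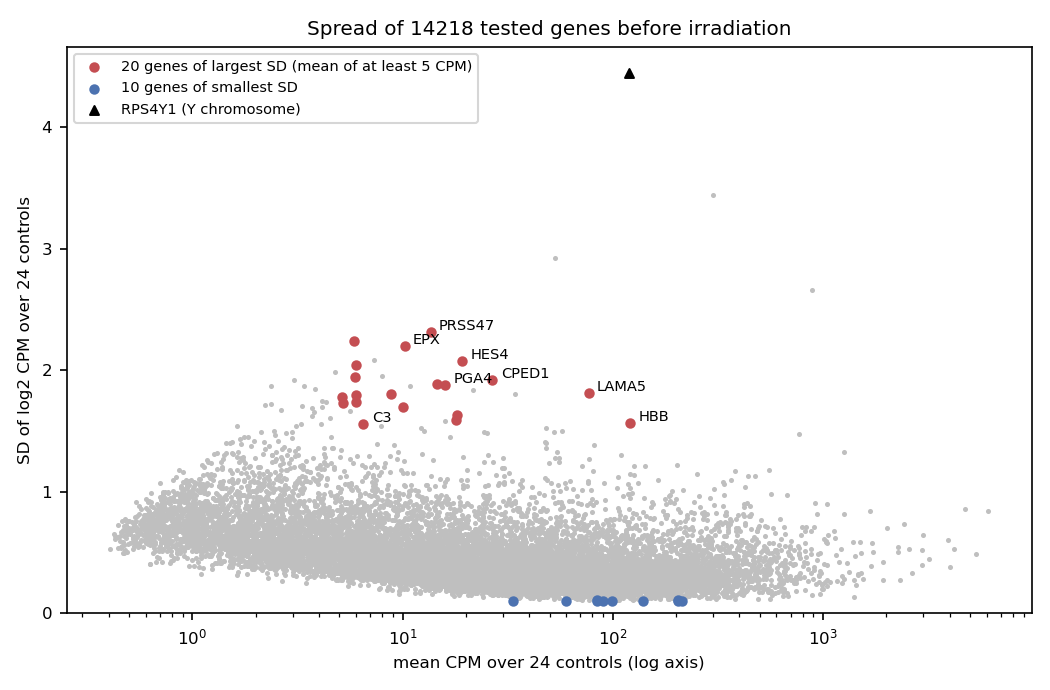
SD of log2 CPM over the 24 controls (y axis) against mean CPM (x axis, log scale) for each of the 14218 tested genes. Red points are the 20 genes of largest SD among those with a mean of at least 5 CPM whose symbols do not begin with LOC, blue points the 10 of smallest SD, and the triangle is RPS4Y1. Genes whose symbols begin with LOC stay grey.

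Cell type lists differed in spread. Of the tested neutrophil genes 73.7% (14 of 19) lay in the tenth of genes with the largest SD, of erythroid genes 65.4% (17 of 26), of platelet genes 57.1% (8 of 14), of NK and cytotoxic genes 55% (11 of 20) and of eosinophil and basophil genes 90% (9 of 10), against 10% of all tested genes. Of T cell, p53 target and class I antigen processing genes 0% lay there. B cell genes had a median SD of 0.706, interferon response genes of 0.599, ribosomal protein genes of 0.626, DNA repair genes of 0.324 and oxidative phosphorylation genes of 0.323. How far the spread of these lists rests on LD shorter followed animals 5 and 6, the controls of lowest scaling factor, was not tested.

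An animal that was high in a gene before irradiation often stayed high afterwards. The control level was compared with the mean log2 CPM over the 5 draws of Day 3 to 21 of the same animal, which had no part in choosing the genes, with a permutation test of Spearman's rho across 24 animals. Of 14218 genes, 5595 (39.4%) had a rho above 0 with an adjusted permutation p of at most 0.05, and the median rho was 0.403. A rho of at least 0.8 was seen in 612 genes (4.30%), but in 19 of the 20 genes of largest spread (95%), of which SIGLEC12, LAMA5 and NFASC are among those that fell into separate sets of animals, and in 157 of the 582 genes that varied at least 10-fold (27%). With draws from Day 30 on, 3218 genes (22.6%) passed and the median rho was 0.298, and a rho of at least 0.8 was seen in 297 genes (2.09%) and in 17 of the 20 genes of largest spread. Without the genes in sets, 16 of 16 had such a rho over Day 3 to 21 and 14 of 16 from Day 30 on. The 4 animals whose control had library number 0 had that number in 20 of 20 draws of Day 3 to 21 as well, against 3 of 100 draws of the other animals, so control and later level share this library difference. In the other 20 animals alone 4992 genes passed, the rho of these 16 was at least 0.8 in 16 of 16, and HBB no longer passed (rho = 0.487, adjusted permutation p = 0.0750). From Day 30 on an animal had 2 to 10 draws, more with longer follow-up. Many of these later draws had library number 0 in animals whose control had another number. The part of this in the lower rho from Day 30 on was not tested.

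CPED1 was high or low in the same animals throughout. Its control level and its Day 3 to 21 level were on the same side of the median in 24 of 24 animals, with rho = 0.948 and r = 0.965 (permutation p = 1e-05 each, the smallest the permutations can give, adjusted p = 0.000231 for rho), r = 0.969 without the 2 animals farthest from the median, and rho = 0.943 in the 20 animals of other library numbers. From Day 30 on rho was 0.969. Over Day 3 to 21 the SD of CPED1 between animals was 1.83 log2 and the SD within an animal 0.338 log2. C3 had rho = 0.970 and r = 0.947 (permutation p = 1e-05 each), with r = 0.944 without the 2 farthest animals, and PRSS47 had rho = 0.960 and r = 0.957 (permutation p = 1e-05 each), with r = 0.932. C3, PRSS47, HUNK and MYH14 were also on the same side of the median in 24 of 24 animals. The Day 3 to 21 level of PRSS47 lay above the control level in 23 of 24 animals. EPX had rho = 0.817 and r = 0.835 (permutation p = 1e-05 each), with r = 0.831 without the 2 farthest animals, and from Day 30 on rho was 0.616. For all 20 genes together the median SD between animals over Day 3 to 21 was 1.65 log2, against 0.505 log2 within animals. Over all tested genes these medians were 0.237 and 0.267 log2.

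Of the 20 genes, SIGLEC12, LAMA5, NFASC and HBB fell into separate sets of animals over Day 3 to 21, with a gap of at least 1.5 log2 between neighbouring animals, so that no pooled correlation is given for them. SIGLEC12 had 8 low animals (control level with prior count of 0.213 to 0.964 CPM) and 16 high animals (3.38 to 19.4 CPM), with r = 0.779 and 0.814 within them. LAMA5 had 7 low animals (3.07 to 24.7 CPM) and 17 high animals (32.1 to 291 CPM), with r = 0.174 in the low and 0.62 in the high animals. All 7 low animals were shorter followed, whereas 4 of the 8 low animals for SIGLEC12 and 2 of the 5 for NFASC were longer followed. Between the follow-up classes LAMA5 had 125.3 against 52.6 CPM, a log2 difference of 1.38 ± 0.603 (edgeR, unadjusted p = 0.0309, adjusted p = 0.9999). NFASC had 5 low and 19 high animals, with r = 0.85 in the latter. HBB had 4 low animals, exactly those with library number 0, and 20 high animals with r = 0.517. PIM1 likewise had 5 high animals (18.2 to 52.1 CPM), those named above, and 19 low animals with r = 0.362.

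**Figure D4:**
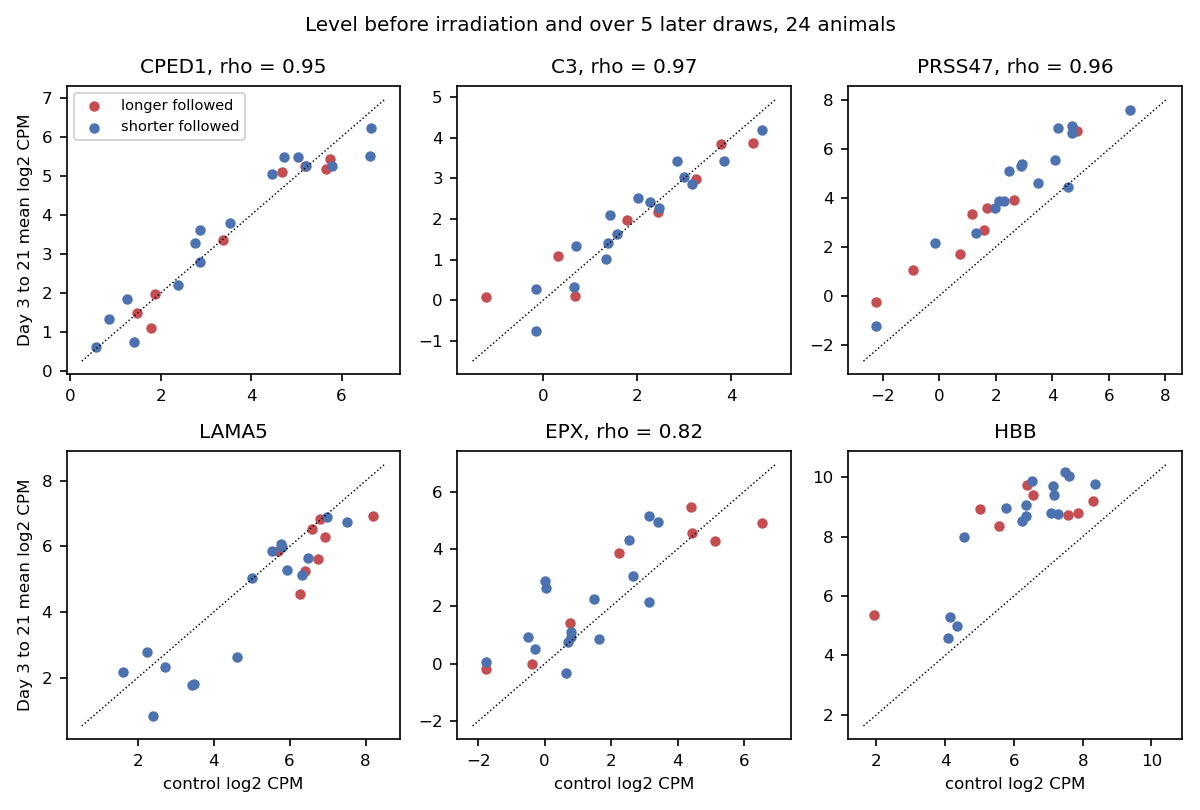
Mean log2 CPM over the 5 draws of Day 3 to 21 (y axis) against log2 CPM of the control (x axis) for 6 genes, 1 point per animal, with a dotted line of equal levels. CPED1, C3 and PRSS47 keep the order of the animals (rho of 0.95, 0.97 and 0.96), LAMA5 and HBB fall into 2 sets of animals, and PRSS47 and HBB lie above the line in 23 and 24 of 24 animals.

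Lists of blood cell genes held their order less tightly than the 20 genes of largest spread. The median rho over Day 3 to 21 was 0.75 for eosinophil and basophil genes, 0.707 for NK and cytotoxic genes, 0.682 for erythroid genes, 0.641 for platelet genes and 0.61 for B cell genes. It was 0.452 for neutrophil genes, 0.4 for interferon response genes and 0.279 for ribosomal protein genes. From Day 30 on it was 0.687 for NK and cytotoxic genes and 0.678 for B cell genes, but 0.401 for erythroid and 0.406 for eosinophil and basophil genes. The later draws differ in number and library number as given above, and the part of this was not tested. The within-animal SD over Day 3 to 21 exceeded the between-animal SD for interferon response genes (median 0.519 against 0.409 log2). It did so over all tested genes as well (0.267 against 0.237 log2). For B cell genes the within-animal SD fell below the between-animal SD (0.295 against 0.664 log2).

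The study named genes in several models of later survival. The 28 genes taken here are those of its models pooled over Day 3 to 21 and of these models by sex, and 26 were tested, while the genes of its models of single days were not used as a list. The study's survival models had control samples as a class, so that choice used controls as well as later draws of these same animals. Among those draws are the ones behind the rho values here. A difference, a large spread or persistence in this list is therefore not independent evidence. None of the 26 was called between longer and shorter followed controls. At an unadjusted p of at most 0.05 stood LAMA5, with higher values in longer followed animals, and LOC114677644 (241 against 535 CPM, log2 difference -1.15 ± 0.427) and HPCAL4, a calcium binding protein of neurons (4.59 against 9.24 CPM, -1.01 ± 0.472), with lower values. The list held many genes that varied between animals before any dose. Of the 26, 13 (50%) lay in the tenth of genes with the largest SD, against 10% of all tested genes, and CPED1, LOC708725, LAMA5 and LOC100427190 lay between the 99.85 and 99.91 percentiles. Of the 26, 21 (80.8%) had a rho above 0 with an adjusted permutation p of at most 0.05 over Day 3 to 21 against 39.4% of all tested genes, and 9 (34.6%) had a rho of at least 0.8 against 4.30%, or 7 of 24 without LAMA5 and LOC100427190, which fell into sets of animals. LOC114677644 had rho = 0.947 and r = 0.950 (permutation p = 1e-05 each), with r = 0.958 without the 2 farthest animals, and HPCAL4 had rho = 0.863 and r = 0.899 (permutation p = 1e-05 each), with r = 0.882. Steadier members were LSM12 (26.5 to 49.6 CPM), ABL2, a tyrosine kinase (28.6 to 55.1 CPM), and NUDCD3 (74.5 to 148 CPM). Transcripts of LOC708725 shared 42.7% of their windows with other genes, those of LOC106997893 41.3% and of DENND2A 34.5%. For LOC100427190 the share was 25.7% and for LOC114677644 15.7%, so the counts of all of these are uncertain.

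**Figure D5:**
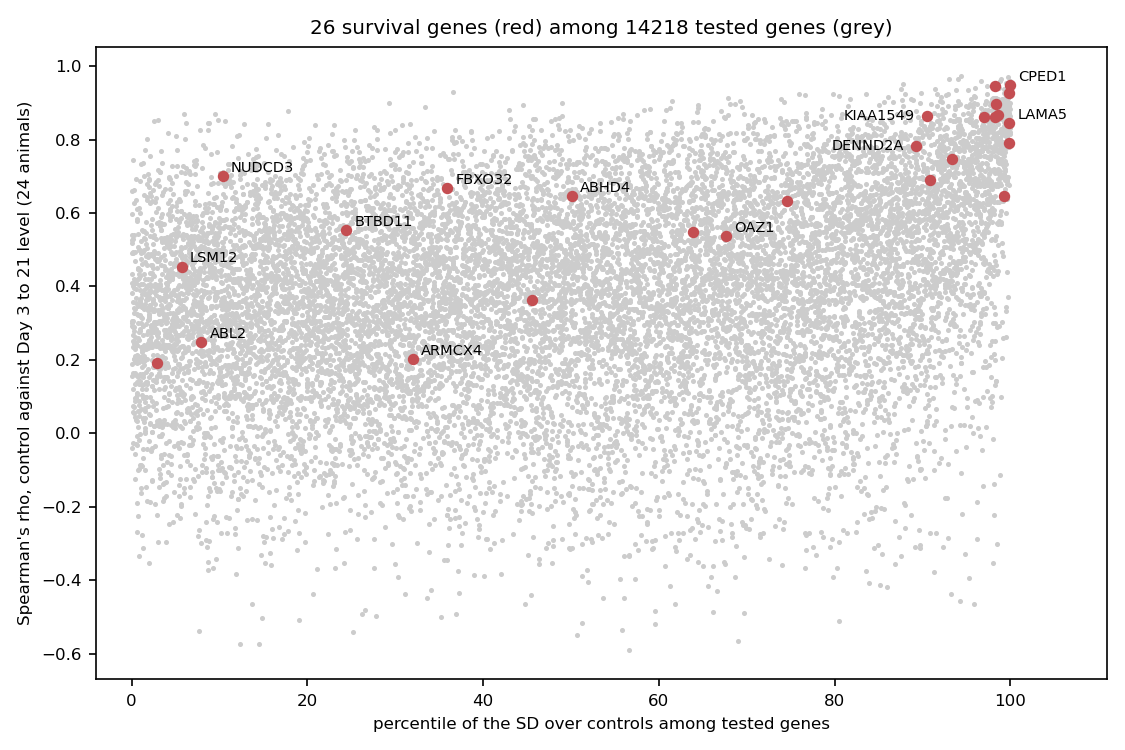
Spearman's rho between control level and Day 3 to 21 level over 24 animals (y axis) against the percentile of the SD over the controls (x axis), for 14218 tested genes (grey) and 26 genes of the pooled survival models (red). Of the red points, 13 lie in the tenth of genes with the largest SD.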

How the data were processed

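Per the study's methods and the labels, ribosomal RNA was removed from whole blood RNA, and the authors trimmed the reads (cutadapt 2.10), aligned them to Mmul_10 (STAR 2.7.6a) and counted them on genes (Subread 2.0.1). The deposited counts are whole reads for 21070 genes, not normalized. A second deposited table holds log2 values for 16730 genes, and in 24 of 24 controls genes of 1 count value share 1 log2 value.

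A gene was tested when 80% or more of the controls had 3 counts or more (14218 genes). Counts were compared with edgeR 4.0.16 in R 4.3.3 (quasi-likelihood, upper quartile scaling, dose group and follow-up as terms, sex added for the sex comparison, Benjamini-Hochberg adjustment over all tested genes). CPM are counts divided by the scaled library total, a prior count of 2 entered log2 CPM, and the SE is the log2 difference over the root of its F value. Persistence was tested by 100000 two-sided permutations. Alternatives used TMM scaling, DESeq2 1.42.0, limma 3.58.1, other filters, terms and class limits, and single controls left out. Tests were tried on simulated data. Intervals and SEs measure the spread between these animals, with 1 control each. Named genes were the 10 of smallest unadjusted p per direction with a fold of at least 1.5 and a mean of at least 1 CPM, the 2 members of each list with the smallest p, and the 20 largest and 10 smallest SDs with a mean of at least 5 CPM (symbols beginning LOC left out), and for sex the 5 largest changes in each direction. Other list members, ZFX, DDX3X, PRKX, EIF1AX and the dose genes were named after their values were seen. The members, lists and rules were chosen with earlier results of these data known. Positions are from the RefSeq annotation of Mmul_10. FCN1 and PF4 were not analysed here. The values of 1 gene of the survival list are not reported here.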

Additional observations from a re-analysis of the deposited data

Results flagged for a closer look

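In 249 groups of values (83 quantities, the named genes and the total count, in the 3 groups of 5, 7 and 9 controls), 14 had 1 control whose gap to the nearest of the others was above the 95% critical value of Dixon's test, which chance gives in about 1 of 20 groups. In HD shorter followed animals SP6 was 0 CPM in animal 7 (others 0.623 to 2.67), SMPD3 was 33 CPM in animal 2 (others 10.2 to 18.5) and PIM1 was 24.5 CPM in animal 6 (others 1.00 to 3.53). In the same group ANKRD22 was 0 CPM in animal 4 (others 5.75 to 32.1), FCER1A was 17.1 CPM in animal 9 (others 2.62 to 6.22) and LOC100427190 was 0.771 CPM in animal 2 (others 16.8 to 40.6). The steady genes RER1 with 158 CPM in animal 1, above the others, EIF4ENIF1 with 54.5 CPM in animal 5 (others 58.8 to 62.9) and SNX19 with 241 CPM in animal 7, above the others, stood out there too.

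In LD longer followed animal 4 PRSS47 was 30.9 CPM (others 1.56 to 3.20) and NFASC 0.268 CPM (others 8.17 to 27). In LD shorter followed animals CPED1 was 2.31 CPM in animal 5 (others 23.3 or more), NFASC was 0.54 CPM in animal 1 (others 5.52 to 13.2) and FBXO32 was 6.00 CPM in animal 6 (others 11.8 to 17.3). No named gene had a follow-up difference that differed between LD and HD animals past the threshold: the interaction was called for 0 of 14218 genes in edgeR, with 1.37% at an unadjusted p of at most 0.05.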

How the results depend on the processing

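No paired analysis was possible because longer and shorter followed animals are different animals and each has 1 control. For longer against shorter followed animals 0 genes were called under each of 39 alternatives, with 200 (HD animals alone) to 885 (without the 2 controls of lowest scaling factor, an alternative chosen after seeing the data) at an unadjusted p of at most 0.05. Leaving out single controls gave 0 throughout. All 20 named genes kept their direction and stayed on the same side of the threshold under the alternatives that gave a value. PIM1 had a log2 difference of 0.79 (unadjusted p = 0.390) in HD animals alone and 2.95 in LD animals alone, and the eosinophil list's median ranged from 0.202 (Day 270 against the rest) to 1.23, the latter on the scale of the ranked last draw day. For HD against LD, 1 gene was called with TMM scaling, 1 with the deposited log2 values and limma, and 10 with DESeq2, and 0 to 1 when single controls were left out (1 without LD longer followed animal 2, LD shorter followed animal 3, or animal 1 of either HD class). For sex, 32 genes were called with no filter on low counts and 26 with at least 10 counts in at least 8 controls (both also test genes read in fewer controls), and 8 to 16 when single controls were left out. Of the 20 genes of largest spread 14 to 20 stayed among the top 20 under other settings, the fewest with the 20 controls of other library numbers. Persistence was called for 3218 genes with draws from Day 30 on, 4992 in those 20 animals and 6459 with Pearson's r. Low counts limit CACNA1C, DNASE1L3 and other genes near 1 CPM.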
